A study of Mus musculus with 4 samples.

Results

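The deposited regions bound by Runx3, a transcription factor of the RUNX family, were examined at 10 genes of apoptotic cell uptake: Mertk, Axl, Tyro3, Gas6, Timd4, Havcr2, Cd36, Stab1, Sirpa and Cd47. The genes were chosen by name for their role, with earlier results of these data known. A peak was assigned to a gene where its centre lay in the gene body or within 50 kb of it, with gene models of GENCODE M1 on the mouse assembly mm9. Under this rule 26 of the 15121 peaks of the list fell to 8 of the 10 genes, and no peak was shared between them. In each of 2 chromatin immunoprecipitation sequencing (ChIP-seq) experiments, Runx3-bound DNA was recovered with a polyclonal antibody made in-house from splenic CD11chiMHCII+CD4+ DC, a conventional dendritic cell (DC) subset, and 2 samples of whole cell extract chromatin (input) served as control. The cells were pooled from several WT mice, freshly sorted, fixed and frozen, with no treatment in any group and with no label for the age of the mice. Strain was labelled C57BL/6 for 3 samples and C57BL/7 for 1 input sample. The list is a single call of both Runx3 samples against both input samples, so that it holds no value for a replicate and no difference between peaks could be set against replicate error. The study's methods state the reads of the pooled samples, but the list gives no reads per sample or per peak, and a window without a peak says only that none was called at that depth. The list holds no expression values, so that the labelled cell type could not be checked against its markers.

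Cells that die by apoptosis expose phosphatidylserine on their surface, and phagocytes bind it directly or through soluble bridging proteins. The TAM receptor tyrosine kinases Tyro3, Axl and Mertk are bridged to phosphatidylserine by Gas6, whereas the TIM proteins encoded by Timd4 and Havcr2 bind it themselves. Cd36 and Stab1 encode scavenger receptors, the latter being stabilin-1. Cd47 encodes a surface protein of healthy cells that restrains uptake by engaging SIRPα, the product of Sirpa, on the phagocyte. Among splenic DC, SIRPα is a usual marker of the CD4+ subset, and CD36 is better known on the CD8+ subset, which is noted for uptake of dying cells.

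The sequences below are the central 200 bases of 6 peaks, taken from NCBIM37, the assembly of mm9, and written 5′ to 3′ on the plus strand. They are the highest peak of each of Axl, Timd4 and Cd47, the peaks closest to the start sites of Havcr2 and Sirpa, and, for contrast, the peak near Tyro3 that lay at the promoter of a neighbouring gene. Capitals mark TGTGGT, the RUNX core hexamer, or ACCACA, the same hexamer on the minus strand. A match is a run of letters and not a tested site. The rule of choice differed between genes, and every printed peak but the one near Tyro3 holds the hexamer. That overstates its share, since 46.2% of member peaks held it in their central 200 bases, compared with 41.8% of all peaks. The highest peaks of Mertk, Havcr2 and Sirpa held none there.
Axl, downstream, chr7:26541115-26541314: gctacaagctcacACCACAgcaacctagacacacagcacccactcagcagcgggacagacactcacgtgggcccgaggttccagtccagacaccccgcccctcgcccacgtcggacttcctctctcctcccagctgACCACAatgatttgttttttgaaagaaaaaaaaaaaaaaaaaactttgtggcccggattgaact
Tyro3, upstream, chr2:119613206-119613405: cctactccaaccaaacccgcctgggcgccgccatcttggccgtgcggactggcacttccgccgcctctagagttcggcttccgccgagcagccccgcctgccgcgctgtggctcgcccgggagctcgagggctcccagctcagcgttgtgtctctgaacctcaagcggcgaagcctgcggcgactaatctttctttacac
Timd4, upstream, chr11:46609369-46609568: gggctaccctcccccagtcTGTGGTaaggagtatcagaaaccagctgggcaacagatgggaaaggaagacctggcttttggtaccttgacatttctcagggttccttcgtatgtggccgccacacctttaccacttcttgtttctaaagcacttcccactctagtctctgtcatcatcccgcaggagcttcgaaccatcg
Havcr2, start site, chr11:46268253-46268452: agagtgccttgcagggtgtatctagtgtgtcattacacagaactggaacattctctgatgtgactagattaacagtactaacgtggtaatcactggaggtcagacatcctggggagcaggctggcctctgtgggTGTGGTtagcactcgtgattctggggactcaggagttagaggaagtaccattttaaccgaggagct
Sirpa, upstream, chr2:129417707-129417906: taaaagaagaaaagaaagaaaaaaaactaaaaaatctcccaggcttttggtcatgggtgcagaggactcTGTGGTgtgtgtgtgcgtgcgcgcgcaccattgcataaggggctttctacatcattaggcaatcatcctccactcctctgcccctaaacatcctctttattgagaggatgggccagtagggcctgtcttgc
Cd47, intron 1, chr16:49858788-49858987: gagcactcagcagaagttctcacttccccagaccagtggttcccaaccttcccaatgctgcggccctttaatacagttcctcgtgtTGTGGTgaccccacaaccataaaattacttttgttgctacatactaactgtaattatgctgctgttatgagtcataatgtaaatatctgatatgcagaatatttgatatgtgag

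The strongest peak of the group lay in intron 1 of Cd47, and the most peaks lay around Havcr2, whereas no peak was found at Gas6 or Cd36. Axl, Tyro3 and Stab1 had peaks in their windows only, none of which was nearest to their own transcription start site (TSS). With 8 of 10 genes having a peak, the count is read against the 62.6% of 22367 protein-coding genes that had a peak under the same rule. A peak centre in the gene body was found for 5 members, Mertk, Timd4, Havcr2, Sirpa and Cd47, compared with 23.2% of protein-coding genes. For the same 5 genes at least 1 peak in the window had one of the gene's own TSS as its nearest, compared with 32.9% of protein-coding genes. Member genes were longer, with a median window of 132.5 kb, where all protein-coding genes had 115.4 kb. Neither share was adjusted for gene length. Peaks within 1 kb of an own TSS were found for 3 genes, Mertk, Havcr2 and Sirpa, which is near the 24.9% of protein-coding genes with such a peak. The median member had 2 peaks, and the median protein-coding gene had 1. Pooled over the windows, this came to 1.76 peaks per 100 kb for the members and 1.27 for all protein-coding genes, without a test, since 10 named genes are no sample of the genome.

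**Figure D1:**
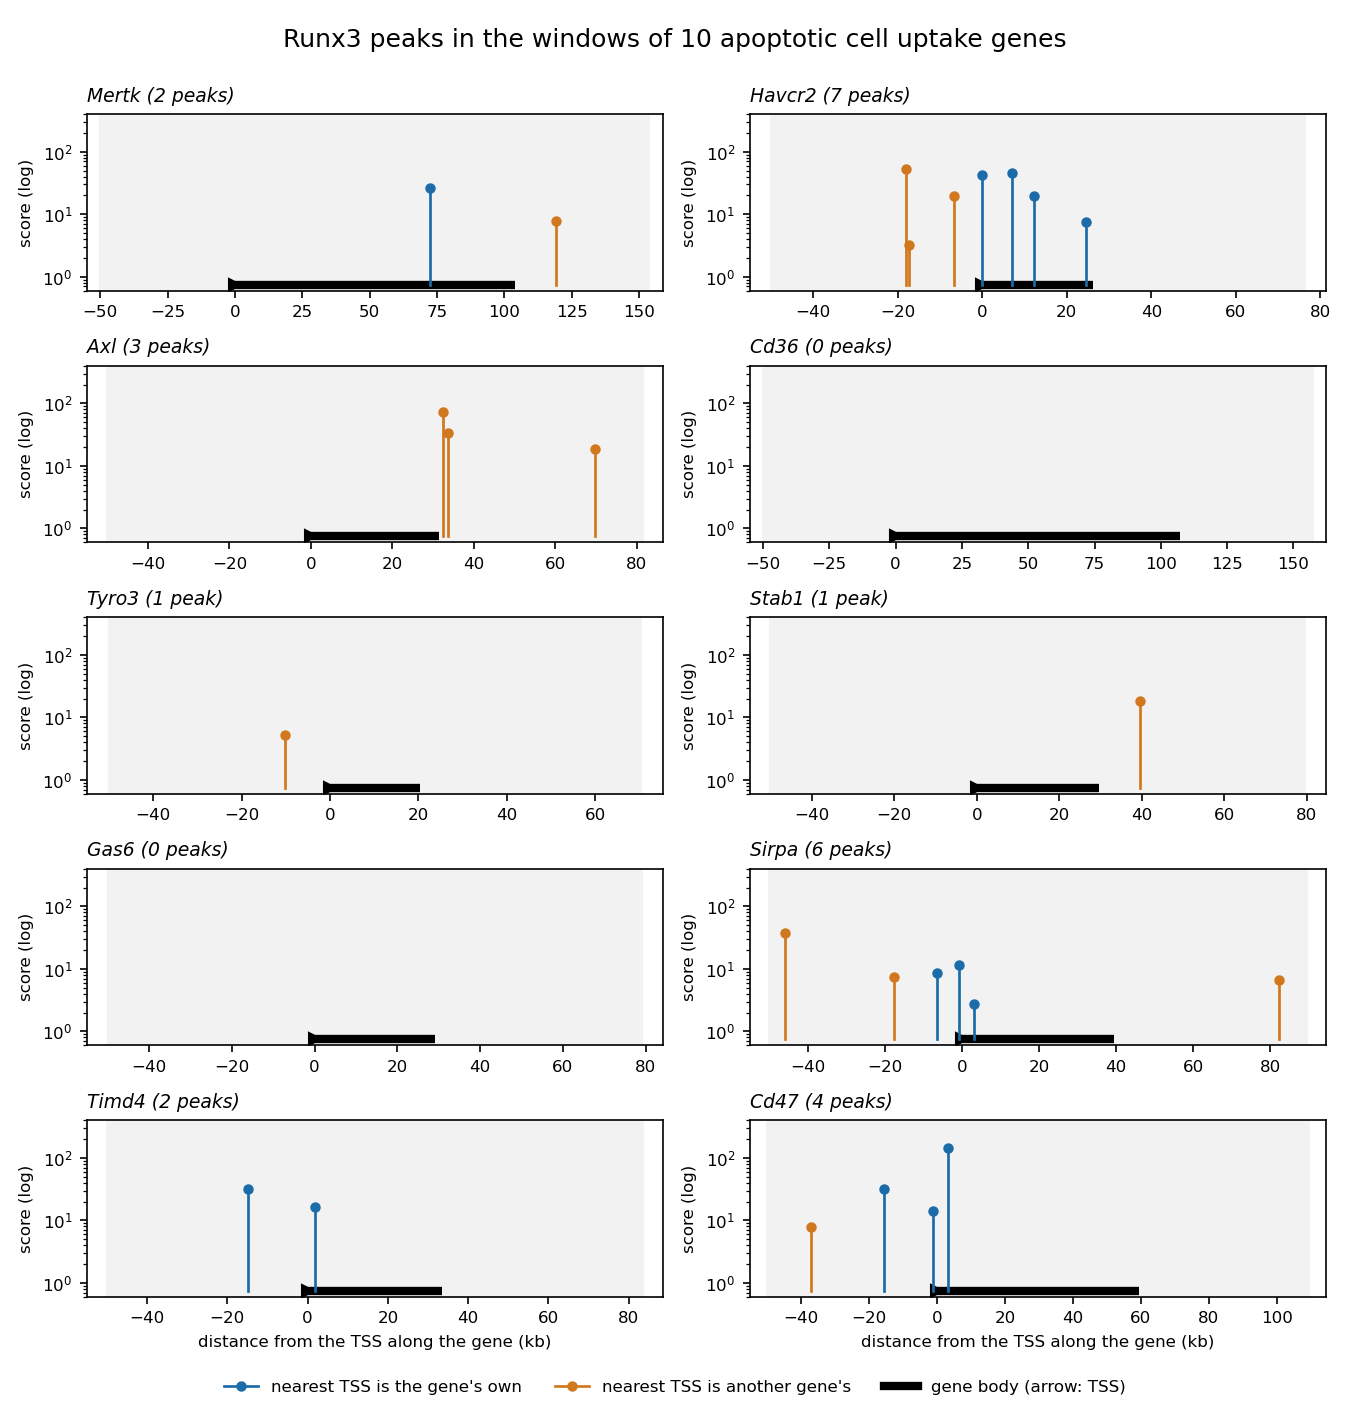
Runx3 peaks at the 10 genes, drawn along each gene with the TSS at 0 (x axis, kb, shaded window of the gene body and 50 kb to either side) against the peak score (y axis, log scale). The black bar is the gene body, and colour tells whether the nearest TSS is the gene's own. Havcr2 has 7 peaks, Cd47 has the peak of highest score at 145.12, and the windows of Gas6 and Cd36 are empty.

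Of the 26 peaks, 13 were nearest to a TSS of the member gene and 13 were nearer to the TSS of another gene, 7 of them within 1 kb of it. By position 13 peaks lay upstream of the gene, 6 downstream, 6 in introns and 1 in an exon. Scores are the values that MACS2 wrote, in a unit that is not stated, and serve only to rank peaks within this list, which ran from 1.33 to 309.3 with a median of 12.1. Member peaks scored from 2.75 to 145.12 with a median of 18.5 (order-statistic 95% interval 7.84 to 32.3, n = 26 peaks, counting error only). The interval includes the median of the list. At or above that median lay 16 of the 26 peaks, or 61.5%, and 10, or 38.5%, lay at or above the upper quartile of 23.2. Peaks nearest to an own TSS had a median of 19.8 (interval 8.49 to 42.4), and the other 13 had a median of 18.1 (interval 6.57 to 37.1), so that the intervals overlap.

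**Figure D2:**
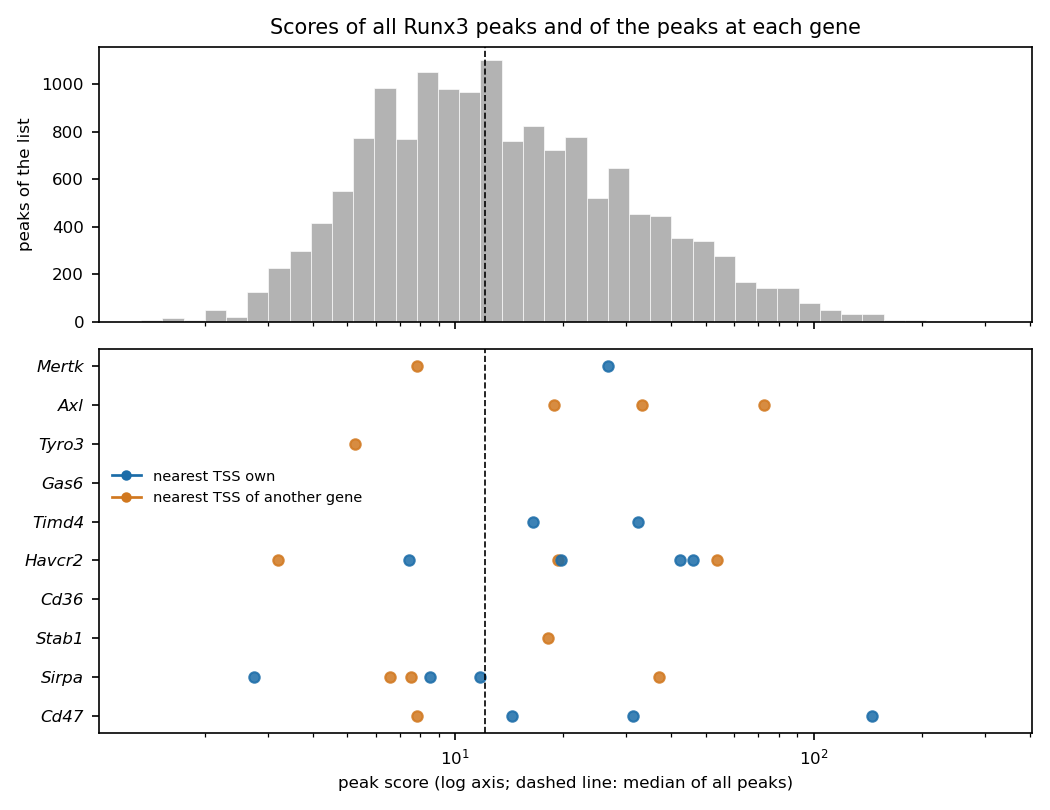
Scores of all 15121 peaks (upper panel, number of peaks per bin) and of each peak at the 10 genes (lower panel, 1 point per peak) on a shared log axis, with the median of the list dashed. The Cd47 peak at 145.12 and the Axl peak at 72.74 stand at the right, and 4 of the 6 Sirpa peaks below 10 stand at the left.

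Among the TAM receptors, Mertk was the one with a peak in its body. Mertk, a receptor that macrophages rely on to clear apoptotic cells, lies at chr2:128524692-128628630 on the plus strand. Its peak at chr2:128596743-128597202 had a score of 26.73, higher than 79.1% of the list. The peak lay in intron 8, 72.3 kb into the gene and 77 bp from the start of another annotated transcript of Mertk, which is why Mertk counted among the genes with a TSS peak although no peak lay at the start of the full-length transcript. The other Mertk peak, at chr2:128643641-128644175 with a score of 7.84, lay 15278 bp beyond the 3′ end of the gene and 54 bp from the TSS of Tmem87b. Neither Mertk peak held TGTGGT.

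Axl encodes the TAM receptor that is often raised in inflamed DC and macrophages, and lies at chr7:26542292-26573724 on the minus strand. Its window held 3 peaks, all beyond the 3′ end of the gene. The highest of them, at chr7:26540971-26541460, scored 72.74 and ranked 434 of the list, above 97.1% of peaks. It lay 1077 bp past the 3′ end of Axl and 1466 bp from the TSS of Hnrnpul1, which lies on the same strand and encodes an RNA-binding protein. A wider peak of 1051 bp at chr7:26539603-26540653, with a score of 33.24, lay beside it and 379 bp from the same TSS. The highest peak held 3 matches to TGTGGT, more than any other member peak, and the wider one held 2. Both lay nearer to the TSS of Hnrnpul1 than to any TSS of Axl, which was 7868 bp from the highest peak and 8955 bp from the wider one. The list alone cannot assign them to either gene. The third peak, at chr7:26503732-26504198 with a score of 18.82, lay 45 bp from the TSS of Ccdc97 and 38327 bp from Axl. In 4.99% of protein-coding genes the highest peak of the window scored as high as that of Axl.

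Tyro3, at chr2:119623469-119643840 on the plus strand, encodes the TAM receptor best known in the nervous system. Its window held 1 peak, at chr2:119613160-119613453, with a score of 5.26 that exceeded 11.4% of the list. The peak lay 33 bp from the TSS of Rpap1, a factor of RNA polymerase assembly, and 10163 bp upstream of Tyro3. The ligand gene Gas6, at chr8:13465374-13494535 on the minus strand, had no peak. The nearest one lay 100.5 kb from the gene at chr8:13594767-13595323, with Rasa3 as the gene of the nearest TSS and with a score of 65.85. A gap of that length or longer was found for 27.7% of 22350 protein-coding genes on chromosomes with a peak, so that an empty window of this kind was common.

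The TIM receptors both had peaks whose nearest TSS was their own. Timd4 encodes TIM-4, a phosphatidylserine receptor of resident macrophages, and lies at chr11:46624302-46657834 on the plus strand. A peak at chr11:46609215-46609723 with a score of 32.31, above 84.7% of the list, lay 14833 bp upstream and held 1 TGTGGT. The other, at chr11:46625917-46626402 with a score of 16.53, lay in intron 1 at 1857 bp from the TSS and held no TGTGGT. No TSS of another protein-coding gene lay in the Timd4 window.

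Havcr2 encodes TIM-3, which is known as an inhibitory receptor on T cells and is also expressed by DC, and lies at chr11:46268437-46294757 on the plus strand. With 7 peaks its window held more than that of any other member, and 4.44% of protein-coding genes had as many or more. Of these 7 peaks, 4 had the Havcr2 TSS as their nearest. The first of these, at chr11:46268079-46268627, lay 84 bp upstream of the TSS and scored 42.43, above 90.4% of the list. It held a TGTGGT 37 bp from its centre, as printed above. The highest of the 4 lay in intron 3 at chr11:46274989-46275993, was 1005 bp wide and scored 45.95, above 91.5% of the list. A peak in intron 4 at chr11:46280321-46280835 scored 19.78. The last, at chr11:46292909-46293227 with a score of 7.44, lay in exon 7 within the 3′ UTR. All 4 held at least 1 TGTGGT, a hexamer held by 34.4% of the list's peaks within 1 kb of a TSS and by 66.1% of those beyond. In the intron 3 and intron 4 peaks the nearest match lay 148 and 153 bp from the centre.

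The remaining 3 peaks of the Havcr2 window lay upstream and nearer to other genes. The highest score of the window, 53.66, belonged to a peak at chr11:46250233-46250763, 9 bp from the TSS of Med7, a subunit of the Mediator complex. A weak peak at chr11:46250989-46251282 with a score of 3.21 lay 628 bp from the same TSS. Neither of the Med7 peaks held TGTGGT. The peak at chr11:46261607-46262067 scored 19.31, held 2 matches, and lay 6600 bp upstream of Havcr2 and 1087 bp from the TSS of the noncoding gene 2310031A07Rik.

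Of the scavenger receptor genes, 1 had a peak in its window and 1 had none. Cd36, at chr5:17287508-17394777 on the minus strand, had none, and the nearest peak of the chromosome lay 1311.7 kb away at chr5:15975541-15975993, with Hgf as the gene of the nearest TSS and with a score of 17.32. A gap as long was found for 3.11% of protein-coding genes, and no TSS of another protein-coding gene lay in the Cd36 window. Empty windows were found for both Gas6 and Cd36, but the distance to the nearest peak was longer at Cd36. Stab1, at chr14:31952199-31981827 on the minus strand, had 1 peak in its window, at chr14:31941872-31942406. With a score of 18.13 the peak exceeded 65.9% of the list. It lay 10060 bp beyond the 3′ end of Stab1 and 23 bp from the TSS of 2010107H07Rik.

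Sirpa, at chr2:129418571-129457964 on the plus strand, had 6 peaks, a number reached by 7.31% of protein-coding genes, and most of them were weak. The 3 nearest to an own TSS scored 8.49, 11.71 and 2.75, all below the median of the list. They lay 6492 bp upstream at chr2:129411912-129412247, 764 bp upstream at chr2:129417592-129418022, and in intron 2 at chr2:129421667-129422000. Of these the one 764 bp upstream held TGTGGT, next to a run of gt repeats that is seen in the sequence above. The highest peak of the window scored 37.12 and lay 45907 bp upstream at chr2:129372435-129372893, nearer to F830045P16Rik. A peak at chr2:129400893-129401155 scored 7.53 and was nearest to the noncoding gene Gm14041. The farthest, at chr2:129500677-129500963 with a score of 6.57, lay 42856 bp past the 3′ end, nearest to Pdyn, and held 1 TGTGGT. Sirpa thus had nearly as many peaks as Havcr2, while its own peaks ranked low and those of Havcr2 at the start site and in intron 3 ranked high.

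Cd47, the gene for the partner of SIRPα, lies at chr16:49855731-49915123 on the plus strand and had 4 peaks. The peak in intron 1, at chr16:49858559-49859218, scored 145.12 and ranked 39 of the 15121 peaks. As high a score was reached in the windows of 0.402% of protein-coding genes. It lay 3067 bp from an own TSS, was 660 bp wide, and held 1 TGTGGT, 11 bp from its centre. Upstream of the gene lay 3 further peaks. At 1220 bp from the TSS the score was 14.40 (chr16:49854276-49854746), and at 15405 bp a peak of 1110 bp scored 31.34 (chr16:49839772-49840881). The farthest, at 36893 bp, scored 7.84 (chr16:49818632-49819044) and was nearest to the noncoding gene Gm16619. Each of the 4 peaks held TGTGGT, as did 66.1% of the list's peaks beyond 1 kb of a TSS. No TSS of another protein-coding gene lay in the window. A second annotated entry with the symbol Cd47, which is not protein-coding, was left out.

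Part of the intron 1 sequence of Cd47 occurs elsewhere in the genome, a measure added after the values were seen. Of 637 words of 24 bases in this peak, 523, or 82.1%, were found once in the genome, and 1 word occurred 343 times. A lower share, 79.9%, was found in the downstream peak of Sirpa, and the other 24 member peaks had 91.7% to 100%. Some other peaks held a word with far more copies than 343. The most were 68243 in the Havcr2 peak 6600 bp upstream and 18619 in the downstream peak of Sirpa. Among the printed peaks, that of Sirpa had a word with 13444 copies and that of Timd4 one with 13317. The hexamer and 4 bases to either side of it were counted likewise on both strands of the genome, and are printed here in the reading direction of TGTGGT to show how common each is.
Cd47, intron 1: gtgtTGTGGTgacc
Axl, highest peak, nearest to its centre: tcatTGTGGTcagc
Havcr2, start site: tgggTGTGGTtagc
Timd4, upstream: agtcTGTGGTaagg
The word of Cd47 intron 1 occurred 434 times in the genome and in 8 peaks of the list, which had a median score of 23.0. That of Axl occurred 15 times, that of Havcr2 37 times and that of Timd4 29 times, each in 1 peak. Over the other 16 matches in member peaks the counts ran from 2 to 207. The 24-base word around the Cd47 intron 1 hexamer was found once in the genome, and words near the centre of that peak had a median of 1 copy. Both values were the same in every member peak where they were counted, so they do not set this peak apart. Only exact words were counted, so copies that differ in some bases were not looked for. The study's methods state that reads were aligned uniquely. The part of repeated sequence in the score of 145.12 was not tested.

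TGTGGT was found in 14 of the 26 member peaks, or 53.8% (Wilson 95% interval 35.5% to 71.2%), compared with 54.0% of all peaks of the list. There were 20 matches in all. The 54.0% over all peaks is lower than the share that the study states for the RUNX motif TGTGGT in its bound regions. The study found its motifs by de novo search, whereas exact matches were counted here, and the reason for the difference was not tested. The hexamer was held by 9 of the 13 peaks nearest to an own TSS (69.2%, interval 42.4% to 87.3%) and by 5 of the 13 nearer to another gene (38.5%, interval 17.7% to 64.5%), and these intervals overlap. The same split followed distance to a TSS. Within 1 kb of any TSS 3 of 10 member peaks held it, or 30.0%, where the list had 34.4%, and beyond 1 kb 11 of 16, or 68.8%, where the list had 66.1%. Member peaks were thus close to the list in each class. Intervals on shares of peaks cover counting error only.

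Other motifs were sought on both strands of the whole peak. TGACGT, the hexamer bound by zDC, a zinc finger factor of conventional DC, was found in 4 member peaks (15.4%, list 11.0%): the Ccdc97 peak near Axl, the intron 1 peak of Timd4, and the intron 3 and exon 7 peaks of Havcr2. GAGGAAGT, an octamer of the PU.1 type, was found in 6 (23.1%, list 14.6%), among them the start site peak of Havcr2, the highest peak of Axl, and the Sirpa peaks 6492 bp upstream and in intron 2. TGANTCA, the AP-1 heptamer, was found in 5 (19.2%, list 13.2%), among them both of the highest own peaks of Havcr2 and the peaks of highest score of Sirpa and Cd47. The start site peak of Havcr2 was the one member peak with TGTGGT, GAGGAAGT and TGANTCA together. With 26 peaks each of these shares rests on few matches.

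**Figure D3:**
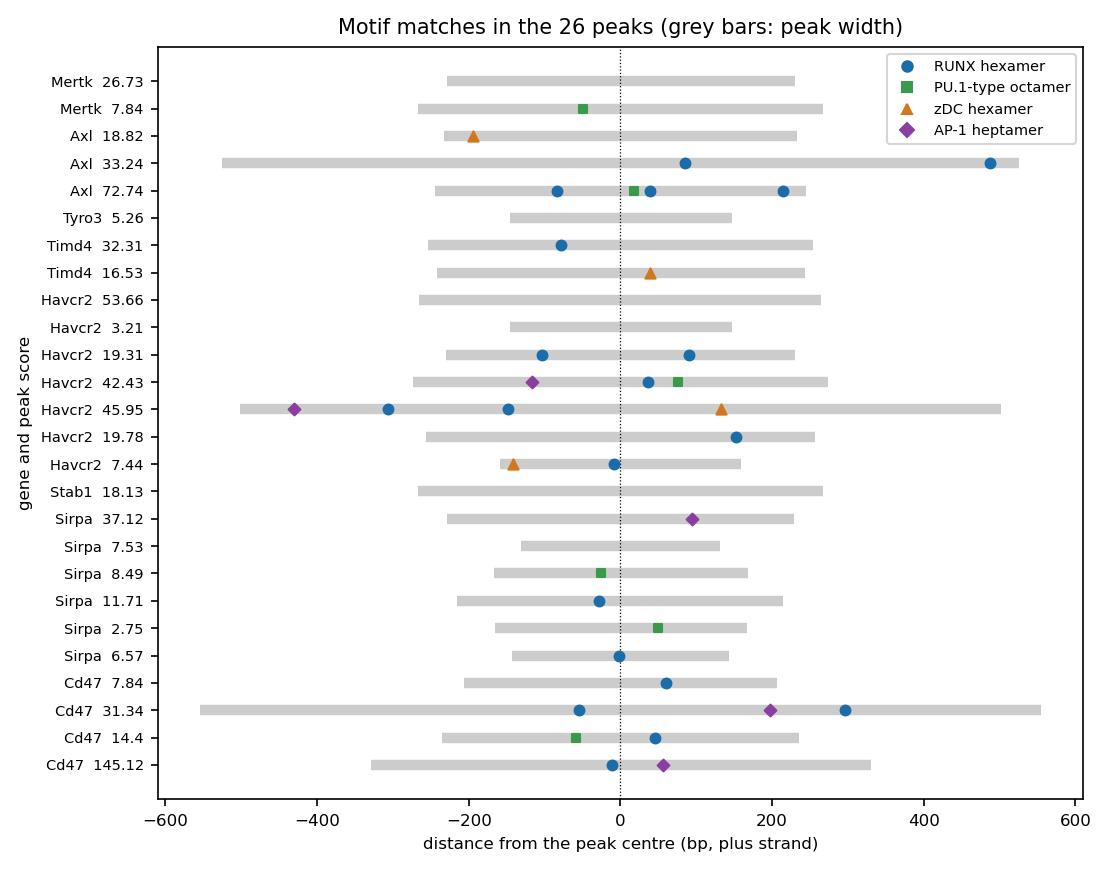
Positions of the 4 motifs in the 26 peaks, with distance from the peak centre on the x axis (bp, plus strand) and 1 row per peak, labelled by gene and score, on the y axis; grey bars are the peak widths. TGTGGT (blue) is found in all 4 peaks of Cd47 and in all 4 peaks nearest to Havcr2's own TSS. The share over all peaks of the list is 54.0%. None of the 4 motifs is found in the Tyro3 and Stab1 peaks, the intron 8 peak of Mertk or either Med7 peak. The same holds for the Sirpa peak that scored 7.53.

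Base composition separated the peaks at promoters of neighbouring genes from the 3 peaks within 1 kb of a member's own TSS. Member peaks within 1 kb of a TSS had a median G+C content of 56.8% and a CpG ratio (observed over expected from the base counts) of 0.760, close to the 59.7% and 0.754 of such peaks in the list. Beyond 1 kb the medians were 45.2% and 0.272, and those of the list were 47.5% and 0.225. Of the 10 peaks within 1 kb of a TSS, the 3 at members' own TSS were low in CpG, with 0.176 at Mertk, 0.139 at Havcr2 and 0.220 at Sirpa. The other 7, at Tmem87b, Ccdc97, Hnrnpul1, Rpap1, Med7 and 2010107H07Rik, had ratios from 0.675 to 0.985. These 3 peaks within 1 kb of an own TSS thus resembled, in CpG, the peaks far from a TSS. The Mertk peak lay in intron 8 at the start of another transcript, and the Sirpa peak lay 764 bp upstream. That of Havcr2 lay 84 bp upstream of the start of its longest transcript. This description was added after the values were seen.

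**Figure D4:**
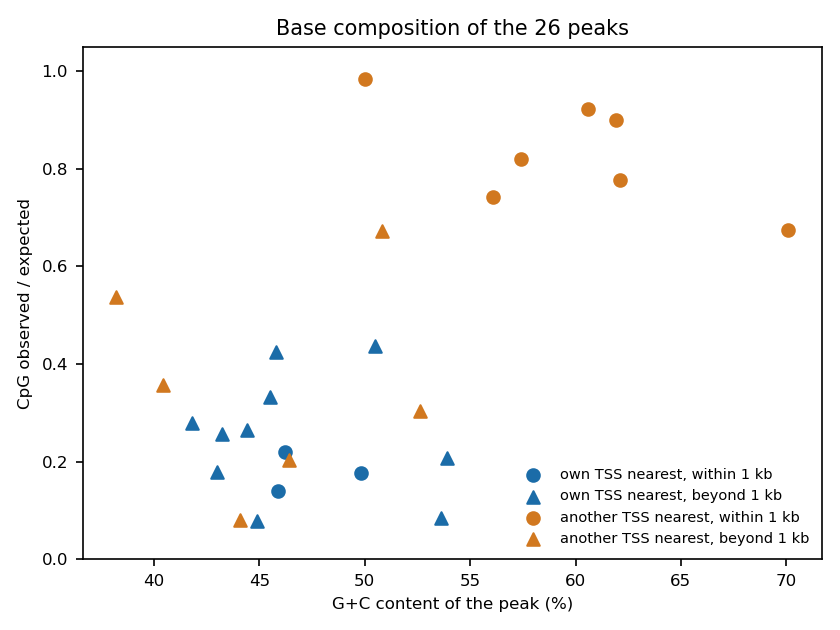
G+C content (x axis, percent of bases) against the CpG ratio (y axis, observed over expected) of the 26 peaks, 1 symbol per peak, with colour for own or other nearest TSS and circles for peaks within 1 kb of it. The 3 circles of members' own TSS lie at or below 0.220, and the 7 circles of neighbouring genes lie at or above 0.675.

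A list of 45 other genes of apoptotic cell uptake gives the surroundings of the 10 members. A peak in the window was found for 33 of them, or 73.3%, compared with 62.6% of protein-coding genes, and for 27, or 60.0%, an own TSS was nearest to a peak, compared with 32.9%. The list was written with earlier results of these data known, and neither share was adjusted for gene length. No conclusion about the pathway is therefore drawn from these shares. Bridging proteins had the fewest, with 3 of 8 genes. The highest score among them was 7.84 at Anxa5, which encodes the phosphatidylserine-binding protein annexin A5, and Thbs1, C1qa, C1qb, C1qc and Anxa1 had no peak. Together with Gas6, the soluble bridging proteins were therefore the sparsest role. However, C1qa, C1qb and C1qc lie side by side on chromosome 4 and share their nearest peak, so that their empty windows are not separate observations. Of 18 other uptake receptors 13 had a peak, with the highest score of 129.03 at Cd300lf, a phosphatidylserine receptor of myeloid cells, and Stab2, Bai1, Timd2, Msr1 and Colec12 had none. Engulfment signalling genes had a peak in 8 of 9 cases. The highest score there was 114.08 in the window of Ptk2, which encodes focal adhesion kinase, nearest to the TSS of Gm10362, and Gulp1 had no peak. All 7 genes of lipid handling after uptake had a peak, with the highest score of 74.15 in the window of Nr1h2, a liver X receptor gene, nearest to the TSS of Pold1. Of 3 receptors for signals that attract phagocytes, Gpr132 had the highest score at 54.74 and S1pr1 had no peak. Windows of genes that lie near each other share peaks, so that these counts are not independent.

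**Figure D5:**
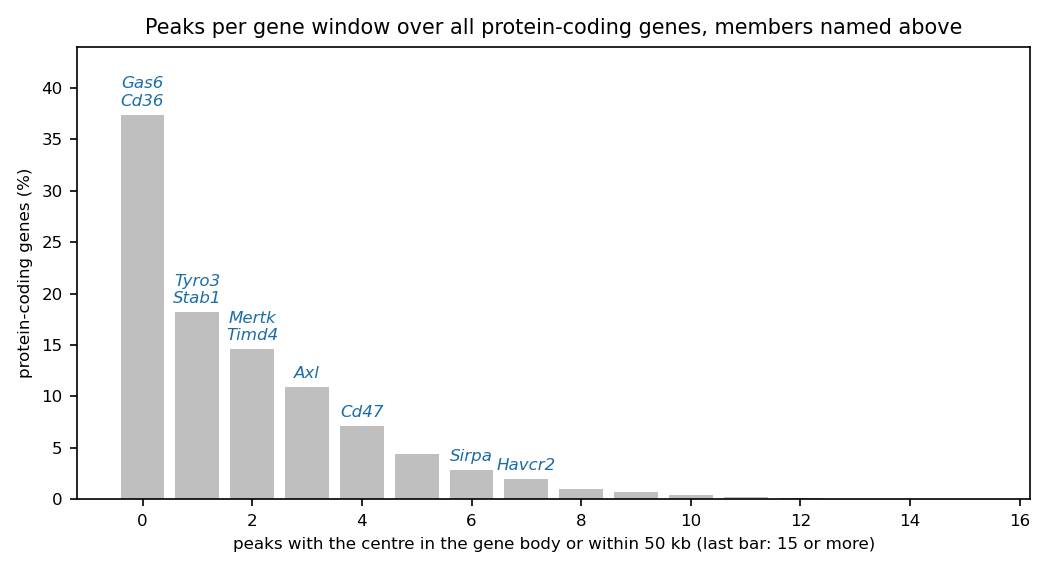
Number of Runx3 peaks per gene window (x axis) over all 22367 protein-coding genes (y axis, percent of genes), with the 10 genes named above the bar they belong to. Havcr2 with 7 and Sirpa with 6 peaks lie beyond the 90th percentile of 5, and Gas6 and Cd36 lie in the bar at 0.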

How the data were processed

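Runx3 ChIP-seq was done by the authors on CD11chiMHCII+CD4+ splenic DC in 2 Runx3 samples and 2 input samples. Reads were processed with CASAVA 1.8, Bowtie and MACS2 on mm9, per the labels. The version of Bowtie and of MACS2, and the threshold, are not given in the sources used here. The deposited list holds the start, end and score of each peak from 1 pooled call, with the score as MACS2 wrote it. Because the samples were pooled, no replicates could be compared. Read totals of the pooled samples are stated in the study's methods, and reads per sample or per peak are not part of the list.

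Genes of chromosomes 1 to 19, X and Y came from GENCODE M1 and bases from NCBIM37. Peaks were placed by their centre, positions were counted from 1, and intron and exon numbers follow each gene's longest transcript. A score percentile is the share of the list with a lower score. Motifs were sought on both strands of the whole peak. No test was run, since the list gives 1 value per peak. Backgrounds are all protein-coding genes or all peaks. All 10 genes are named with every peak; of the 45 pathway genes, those with the highest score in each role and those without a peak are named; other genes are named where their TSS was nearest to a peak. The members and lists were chosen with earlier results of these data known. Alternatives were score thresholds, joined peaks, other distances and assignment rules, and other motif windows. The counting was tested on simulated peaks. Scripts ran in Python 3.11.15 with pysam 0.24.0, pandas 2.3.3, matplotlib 3.10.9, scipy 1.17.1 and numpy 2.4.6. Sequences of some peaks are not reported here.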

Additional observations from a re-analysis of the deposited data

How the results depend on the processing

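No paired analysis was possible because the list is 1 pooled call with no value per sample, and for the same reason no replicate could be left out. The number of member peaks, 26 as reported, was 16 at or above the median score of the list, 10 at or above its upper quartile, 14 within 10 kb, 7 in gene bodies only, 15 in domains by the basal plus extension rule and 13 by nearest TSS. Members with a peak, 8 as reported, were 5 in gene bodies, 4 by basal plus extension domains and 5 by nearest TSS, where the shares of protein-coding genes were 23.2%, 43.3% and 33.4%. The median score rose from 18.5 to 39.8 at or above the upper quartile, by construction. The share with TGTGGT was 71.4% within 10 kb and 73.3% in basal plus extension domains. Members with a TSS peak were 5 within 5 kb instead of 3 within 1 kb. The share of protein-coding genes with a TSS peak was counted within 1 kb only, so the count within 5 kb has no background beside it. The other 30 values moved less by the limits set for each result, though not all were close. The median score was 31.8 at or above the median of the list, by construction, the share with TGTGGT was 70.0% at or above the upper quartile and 69.2% by nearest TSS, and 33 peaks lay within 100 kb. Whether a weaker region was called depends on the depth of the pooled samples, and reads per peak were not analysed here.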

Other observations

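Havcr2, Timd2, Havcr1 and Timd4 lie in 1 cluster of TIM genes on chromosome 11, and peaks lay at both of its ends. The window of Timd2 held no peak, and the nearest peak lay 88.9 kb away, which was the upstream peak of Timd4 with a score of 32.31. Havcr1, which encodes the phosphatidylserine receptor TIM-1, had 2 peaks in its window. Both were those of Timd4 given in the report, and the nearest of them lay 16.4 kb from Havcr1. Thus no peak in the windows of Timd2 and Havcr1 had a TSS of these genes as its nearest, whereas 4 peaks had that of Havcr2 and 2 had that of Timd4.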
